A study of Rattus norvegicus with 80 samples.

Results

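Col1a1, Col1a2, Col3a1, Fn1, Sparc and Lox, 6 of the 32883 rat gene identifiers counted by RNA sequencing, were followed across every tissue and line of a study of Nf1-mutated rats. The genes were chosen by name as fibrillar collagens and proteins that assemble or cross-link with them, and all 6 had a row in the count table. Their identifiers are ENSRNOG00000003897 (Col1a1), ENSRNOG00000011292 (Col1a2), ENSRNOG00000003357 (Col3a1), ENSRNOG00000014288 (Fn1), ENSRNOG00000012840 (Sparc) and ENSRNOG00000014426 (Lox). Libraries came from wildtype rats and from 3 Nf1-mutated lines that the labels call IF, PS and IFPS without spelling the names out. Nf1 encodes neurofibromin, which switches Ras off. The series' title names mammary collagen and adipocyte differentiation ahead of tumors as its subject. Whole mammary pads, which hold gland and fat together, gave 3 IF libraries and 6 each of wildtype, PS and IFPS. Cultured mammary epithelial cells (MECs), mature adipocytes and cultured fibroblasts were sequenced from 3 samples each of wildtype, IF, PS and IFPS rats, and tumors from 9 PS, 9 IFPS and 5 IF samples. MECs and fibroblasts had been grown to confluence, and the series text calls the normal tissues flow sorted. Age, sex, strain background and the animal behind each library are not given in the labels, and the tissue labels could not be checked against defining markers because the files name no symbols.

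Fibrillar collagens are the rope-like proteins that give connective tissue its tensile strength, and fibroblasts are their main source in the mammary gland. Type I collagen is a trimer of α1 chains, encoded by Col1a1, and an α2 chain, encoded by Col1a2. Type III collagen, from Col3a1, forms thinner fibrils alongside it. Fibronectin (Fn1) is laid down early and guides collagen assembly, Sparc (osteonectin) is a secreted protein that binds collagen, and lysyl oxidase (Lox) cross-links collagen and elastin.

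The 80 libraries held 17344717 to 37293141 counts, with a median of 26277354 counts. Levels are CPM, each library's counts scaled to a common total and then between libraries with edgeR's TMM factors, and a gene was called at an adjusted p under 0.05 over all identifiers of a fit. Gene lengths are not in the files, so levels are compared between samples and never between genes. The row listed for Col1a2 went against its name. It held 0 to 403 counts per library (median 62), at most 0.147% of the counts of Col1a1, although the protein products share one trimer. Its 4 libraries at 0 were 2 of PS adipocytes, 1 of IFPS adipocytes and 1 PS tumor, where a count of 0 allows up to 0.103 to 0.147 CPM. Over the 19 group means Col1a1 was the closest of 9686 rows to this row in log2 level (Pearson r = 0.988). This row in turn ranked 2 among the rows closest to Col1a1. It is called the Col1a2 row below and stands for the pattern of that row, not for the amount of Col1a2 mRNA.

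Promoter sequence in the RefSeq table of assembly GRCr8 matched 2 of the 6 genes, Col1a2 and Sparc, and is shown because these genes are followed together here. Col1a1, Col3a1, Fn1 and Lox had no entry. The Col1a2 stretch lies at chr4:33518307-33518426 on the plus strand, 120 bases that begin 250 bases before the recorded start. The Sparc stretch is the whole 250 bases before the start, at chr10:40038817-40039066 on the minus strand. Both strands were searched for 4 motifs, which capitals mark. The first was the CCAAT box, which reads ATTGG where it lies on the other strand. The second was the TATA box in the letters TATAAA. The third was the GC box, here GGGCGG read on either strand. The fourth was the purine motif with the letters GGAGGAG read on either strand.
Col1a2: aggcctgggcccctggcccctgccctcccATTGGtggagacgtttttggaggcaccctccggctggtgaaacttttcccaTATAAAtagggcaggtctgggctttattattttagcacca
Sparc: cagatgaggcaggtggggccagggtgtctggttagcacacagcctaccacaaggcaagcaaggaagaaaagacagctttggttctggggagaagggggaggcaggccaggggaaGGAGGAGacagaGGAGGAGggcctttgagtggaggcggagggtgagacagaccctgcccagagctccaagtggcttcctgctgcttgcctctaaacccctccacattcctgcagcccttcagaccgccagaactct
The Col1a2 stretch held 1 CCAAT box and 1 TATA box, motifs found in 17.1% and 6.31% of windows of that length and place among 33469 promoters. The Sparc stretch held 2 copies of the purine motif, which occurred at least once in 14.2% of such windows, and none of the other 3 motifs. The remaining 2 motifs were not in the Col1a2 stretch. These matches describe letters only.

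Fibroblasts had the highest group mean of all 6 genes. PS tumors had the lowest mean of Col3a1, Fn1, Sparc and Lox, and PS or IFPS adipocytes the lowest of the Col1a2 row and Col1a1. The 6 rows together took 10.6% ± 0.678 of all counts in wildtype fibroblasts, 7.48% ± 2.05 in wildtype pads, 5.02% ± 0.319 in wildtype MECs and 0.981% ± 0.130 in wildtype adipocytes (mean ± SD). In tumors the share was 0.300% ± 0.166 for PS, 1.3% ± 1.54 for IF and 1.39% ± 1.77 for IFPS. PS fibroblasts led for every gene but Lox, which was highest in IFPS fibroblasts.

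**Figure D1:**
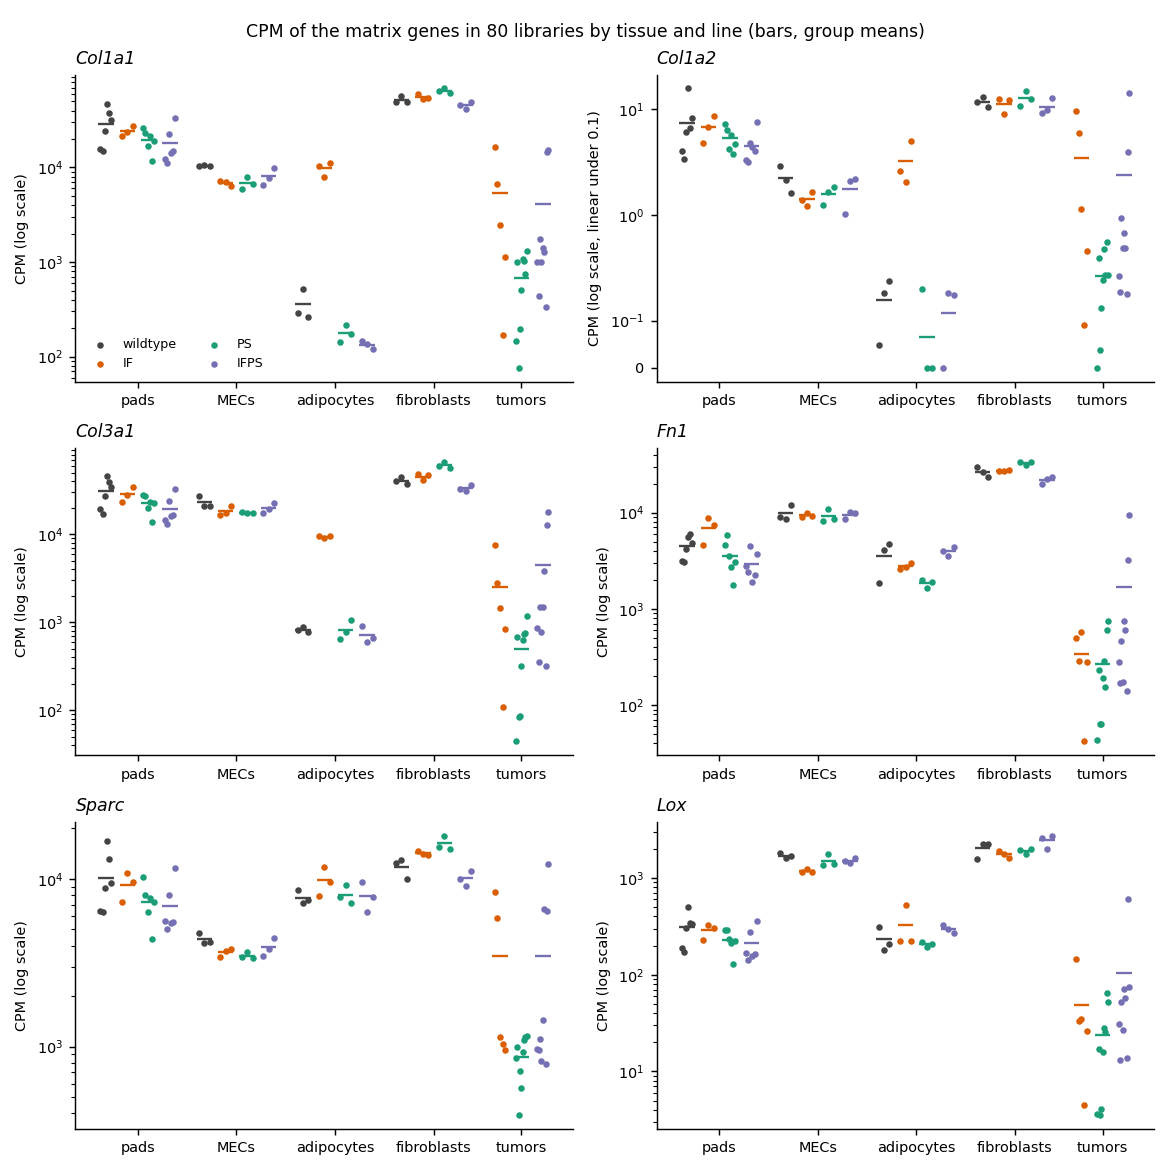
CPM of each gene (y axis, logarithmic; linear under 0.1 CPM for the Col1a2 row) in every library, by tissue and line (x axis). Points are libraries and bars are group means. Fibroblasts have the highest group mean of every gene, IF adipocytes sit above the other adipocytes for Col1a1, the Col1a2 row and Col3a1, and tumors spread widely.

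In wildtype cells both collagens were highest in fibroblasts, then MECs, then adipocytes. Col1a1 measured 49269, 56990.4 and 49477 CPM in fibroblasts, 10285, 10629 and 10249.6 CPM in MECs and 291, 519 and 265 CPM in adipocytes. Col3a1 measured 40067, 44589 and 37581 CPM in fibroblasts, 27249, 20863 and 20806 CPM in MECs and 820.1, 882 and 776 CPM in adipocytes. For both collagens the 3 cell types did not overlap, where pairs of cell types were apart for 64.9 to 74.9% of identifiers. Fibroblasts exceeded MECs by 2.34 ± 0.21 (log2 fold change ± SE; adjusted p = 2.26e-10, edgeR quasi-likelihood test) for Col1a1, and by 0.85 ± 0.17 for Col3a1 (adjusted p = 7.84e-05). Fn1 was 1.46 ± 0.21 higher on the log2 scale in fibroblasts than in MECs and Sparc 1.46 ± 0.15 higher. Lox was the exception, with 1570.3, 2245 and 2247 CPM in fibroblasts against 1811, 1596 and 1694 CPM in MECs, overlapping values and an adjusted p of 0.294. Its log2 difference was 0.27, and -0.10 when libraries were scaled by their totals alone. In all, 5 of 6 genes were higher in fibroblasts than in MECs, where 59.3% of identifiers were called and 29.9% were called higher.

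Adipocytes were low in collagen and high in Sparc. Against fibroblasts all 6 genes were lower in adipocytes, by 7.21 (Col1a1) to 0.64 (Sparc) on the log2 scale, in a comparison that called 69.7% of identifiers and 34.9% as higher in fibroblasts. Sparc measured 8571, 7132 and 7495 CPM in wildtype adipocytes, 4729, 4153 and 4188 CPM in MECs and 12475, 12892 and 9939 CPM in fibroblasts. It was the 1 gene of the 6 that was higher in adipocytes than in MECs (0.82 ± 0.15, adjusted p = 1.42e-05), while the other 5 were lower. That comparison called 73.4% of identifiers, 35.8% higher and 37.6% lower. The labels have adipocyte RNA extracted directly and MEC and fibroblast RNA extracted from confluent cultures, so cell type and handling cannot be told apart here.

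Ordered by group mean, most neighbours did not differ beyond their spread. Of 18 neighbouring pairs among the 19 groups, the ranges were apart in 4 for Col1a1, Fn1 and Sparc, in 3 for Col3a1, in 2 for Lox and in 1 for the Col1a2 row. Such counts were not made for other identifiers. For Col1a1, Col3a1 and Fn1 the order ran PS, IF, wildtype and IFPS fibroblasts, with PS apart from IF and wildtype apart from IFPS. PS fibroblasts were apart from IF fibroblasts for Sparc too. Over all identifiers, 29.9% had PS and IF fibroblasts apart, and 20.7% had IFPS and wildtype fibroblasts apart. For Col1a1 the lowest wildtype fibroblast library had 49269 CPM and the highest IFPS one 49240 CPM. Col1a1 then dropped to pads (17988 to 28642 CPM, means), MECs (6859 to 10388 CPM) and, among adipocytes, to 133 CPM in IFPS. IF adipocytes, at 9760.4 ± 1631 CPM (SD, n = 3), lay among the MEC groups in this order.

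In whole pads no difference between lines passed the test for any of the 6 genes. A whole pad mixes cell types, so fewer cells of a type and less RNA per cell cannot be told apart in pads or in tumors. Col1a1 ranged over 15033 to 47322 CPM with a median of 27935 in wildtype pads, 11656 to 26087 CPM with a median of 20307 in PS pads and 11227 to 33031 CPM with a median of 14475 in IFPS pads, and measured 21538, 23903 and 27744 CPM in IF pads. Ranges overlapped between every line and wildtype for all 6 genes. No gene of the 6 was called by edgeR or DESeq2 for IF, PS or IFPS against wildtype, where edgeR called 0%, 0.0061% and 0% of identifiers. DESeq2 called 0%, 0.495% and 0.128% of them. At an unadjusted p under 0.05 the numbers were 0 of 6 for IF (1.87% of all identifiers), 0 for PS (10.2%) and 3 for IFPS (7.92%). The 3 in IFPS pads were the Col1a2 row (-0.64 ± 0.30, adjusted p = 0.626), Col3a1 (-0.62 ± 0.29, adjusted p = 0.626) and Fn1 (-0.64 ± 0.29, adjusted p = 0.626). Among the 3 mutated lines 0 genes were called (0% of identifiers), and 1, Fn1, had an unadjusted p under 0.05 (7.12%). Fn1 measured 4616, 8853 and 7386 CPM in IF pads.

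The numbering of the pads moved with these values. Titles number wildtype, PS and IFPS pads in a first set (1 to 12) and a second set (13 to 21). The fit carried the set as a term, a single shift shared by all lines. Col1a1 in wildtype pads was 15033 to 24367 CPM in the first set and 31503 to 47322 CPM in the second, which did not overlap. The share of identifiers apart between the wildtype sets was not computed, so this is not particular to these genes as far as known. PS pads gave 22111 ± 4701 CPM (SD, n = 3) in the first set and 17423 ± 5099 CPM in the second, which overlapped. A shared shift cannot fit means that moved up in wildtype and down in PS pads. All 3 IF pads were in the first set. There Fn1 in wildtype pads was 3085 to 4209 CPM, below the 4616 to 8853 CPM of IF pads. With pads 1 to 12 only, 0 of the 6 genes were called for IF against wildtype. The share of identifiers apart between those groups was not computed. Within the first set alone all 6 PS minus wildtype values were above 0 (0.18 to 0.41, log2), and over both sets all 6 were below 0 (-0.44 to -0.34), none of them called.

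**Figure D2:**
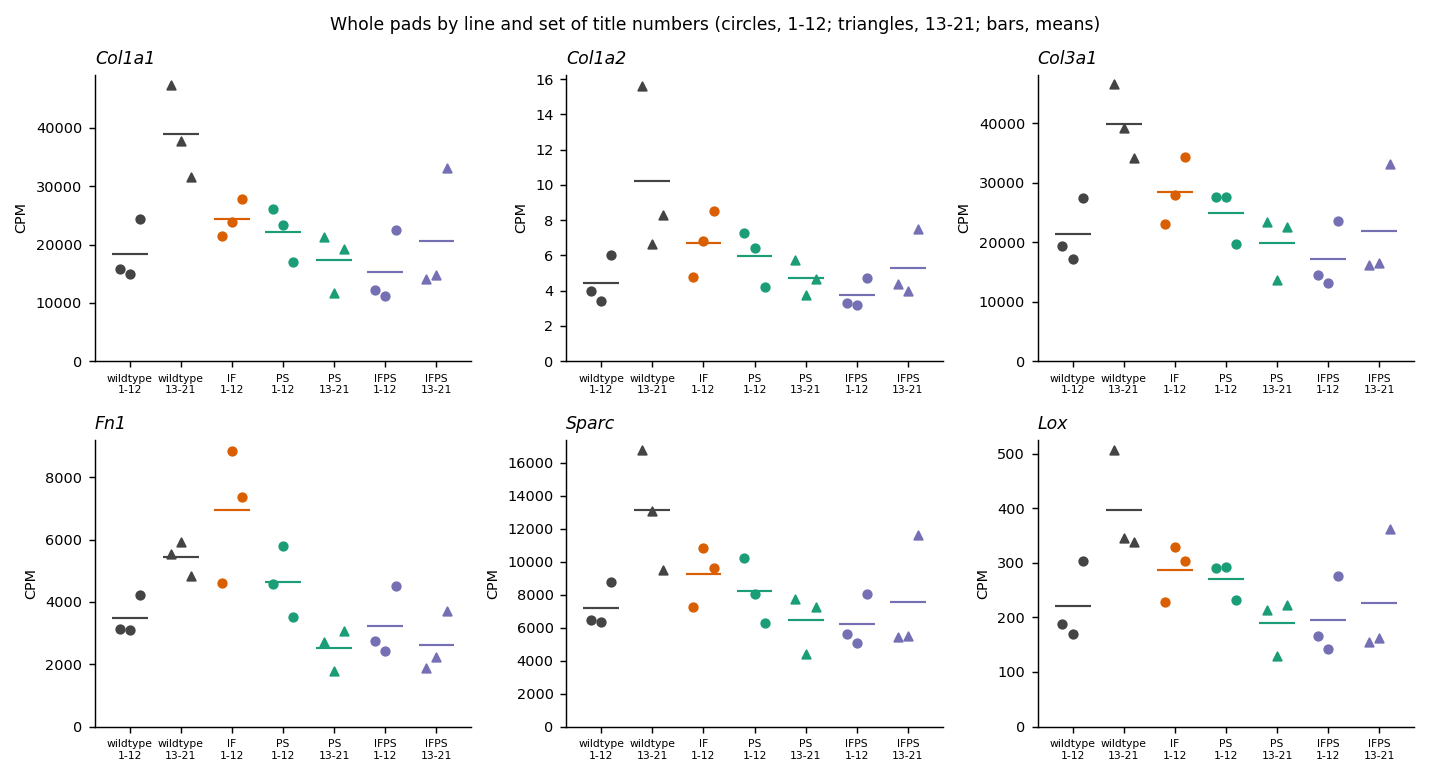
CPM (y axis, from 0) of each gene in whole pads by line and set of title numbers (x axis). Circles are pads 1 to 12, triangles pads 13 to 21, and bars are means of 3 pads. Second-set wildtype pads are above first-set wildtype pads for all 6 genes, and PS means are lower in the second set. Other identifiers were not compared between sets.

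In MECs 1 gene of the 6 was called in 1 line, and Col1a1 was lower in every library of the mutated lines than in wildtype. Lox measured 1811, 1596 and 1694 CPM in wildtype MECs and 1141, 1238 and 1162 CPM in IF MECs, with no overlap. It fell by 0.52 ± 0.10 on the log2 scale (adjusted p = 0.0424), the 1 call of 6 where 0.817% of identifiers were called and 0.34% were called lower. Of the 6 fits that left out a library, the call was kept only in that without wildtype replicate 2, with adjusted p from 0.0254 to 0.14, and was lost in the fit of only those groups (adjusted p = 0.0868). Col1a1 measured 10285, 10629 and 10249.6 CPM in wildtype MECs. All 9 MEC libraries of the mutated lines lay below those 3, at 7189, 7028 and 6361 CPM in IF, 5987, 7962 and 6716 CPM in PS and 6494, 7741 and 9893 CPM in IFPS. The 3 comparisons share the same wildtype libraries. Groups did not overlap wildtype for 20.5% of identifiers in IF, 21.8% in PS and 15.6% in IFPS MECs. None of the 3 Col1a1 differences was called by edgeR, with adjusted p-values of 0.0733, 0.0567 and 0.391. Without the filter on low counts edgeR called Col1a1 in IF (adjusted p = 0.0483, 0.714% of identifiers called) and PS MECs (adjusted p = 0.0366, 1.53%). DESeq2 called it in IF MECs (adjusted p = 0.00277, 4.43% of identifiers called) and PS MECs (adjusted p = 0.00183).

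PS MECs had 0 of 6 genes called with edgeR (2.36% of identifiers), 3 at an unadjusted p under 0.05 (19%) and 2 with DESeq2, Col1a1 and Sparc (6.25%). IFPS MECs had 0 called (0.374%), 1 unadjusted (10.8%) and 0 with DESeq2 (1.6%). Fn1 was the steadiest of the 6 in MECs, at 8498 to 11943 CPM in wildtype and 8159.9 to 10788 CPM in PS, with log2 differences of -0.05 to -0.10 for the 3 lines. The 3 mutated lines did not differ from each other for any of the 6 genes with edgeR (0.184% of identifiers). For Lox the unadjusted p was 0.00683, the 1 under 0.05 (14.3%), and DESeq2 called it, as it did 3.96% of identifiers.

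**Figure D3:**
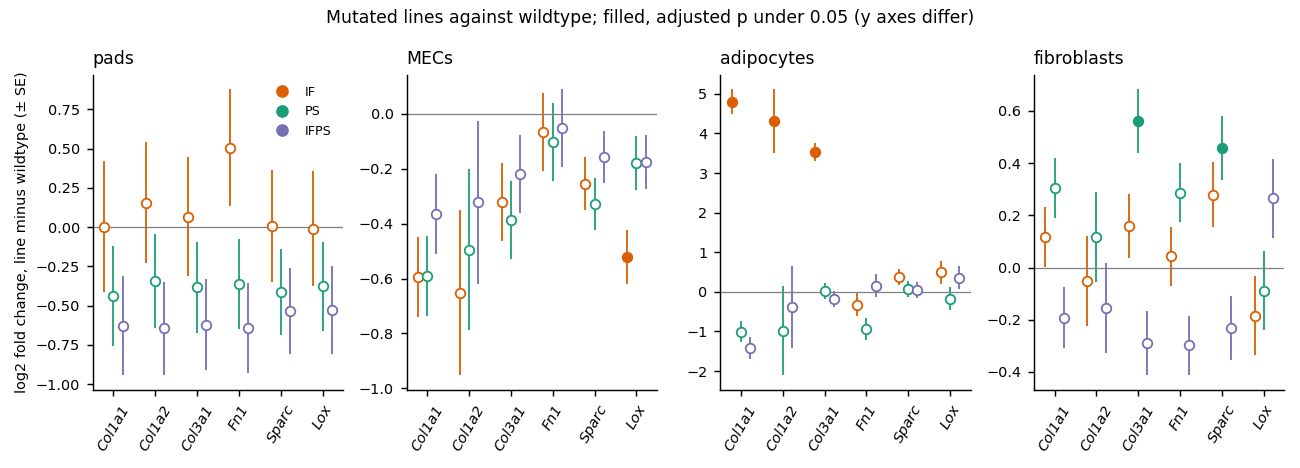
Log2 fold change of each line against wildtype (y axis, ± SE from edgeR; scales differ between panels) for the 6 genes (x axis) in pads, MECs, adipocytes and fibroblasts. Filled points have an adjusted p under 0.05: Lox in IF MECs, 3 collagen rows in IF adipocytes, and Col3a1 and Sparc in PS fibroblasts.

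Collagen was far higher in IF adipocytes than in any other adipocytes. Col1a1 measured 10303, 7927 and 11051 CPM in IF adipocytes against 291, 519 and 265 CPM in wildtype. That was a rise of 4.81 ± 0.31 on the log2 scale, or 28-fold (adjusted p = 1.09e-05). Col3a1 measured 9495, 9132 and 9493 CPM in IF and 820.1, 882 and 776 CPM in wildtype adipocytes, a rise of 3.54 ± 0.22 (adjusted p = 9.79e-06). The Col1a2 row rose by 4.32 ± 0.81 (adjusted p = 0.00176), from 1 to 6 counts per wildtype library to 40 to 113 per IF library. At such counts the fitted fold depends on the fit's prior count. For these 3 rows no IF library overlapped wildtype, and the calls were kept whichever library was left out.

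The other 3 genes were not called in IF adipocytes. Fn1 measured 2612, 2739.6 and 2999 CPM in IF and 1845, 4065 and 4752 CPM in wildtype adipocytes (-0.32 ± 0.28, adjusted p = 0.363). Without the lowest wildtype library, replicate 1, Fn1 was called lower (-0.65, adjusted p = 0.0083). Sparc differed by 0.37 ± 0.20 (adjusted p = 0.144). Lox measured 225, 522 and 224 CPM in IF adipocytes, 1 library apart from the other IF values (0.50 ± 0.29, adjusted p = 0.179). The 3 calls of 6 were all higher, in a comparison that called 48.2% of identifiers and 26.5% as higher. The groups did not overlap for those 3 genes, nor for 50.2% of identifiers. The median log2 fold change was 2.02 over the 6 rows and 0.01 over all identifiers tested.

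Transcripts of other cell types moved with this result. A fibroblast-enriched score, the mean log2 CPM of 354 identifiers at least 4-fold above both other wildtype cell types with the genes described here left out, was 1.16 ± 0.32 in IF and -0.24 ± 0.13 in wildtype adipocytes. The same score for 1020 MEC-enriched identifiers ranged from -0.79 to 1.0 in IF and from -1.73 to -1.22 in wildtype adipocytes. For 1209 adipocyte-enriched identifiers it was 4.11 ± 0.35 and 4.07 ± 0.26. The part of such transcripts in the collagen values was not tested.

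PS and IFPS adipocytes lay below wildtype for Col1a1 without passing the test. Values were 141, 217 and 173 CPM in PS and 145, 135 and 119 CPM in IFPS adipocytes, and none of these libraries overlapped wildtype. In each line Col1a1 was the 1 gene of the 6 apart from wildtype, as were 21.5% of identifiers in PS and 15.5% in IFPS. The Col1a1 differences of -1.0 ± 0.27 and -1.42 ± 0.27 were not called with edgeR (adjusted p = 0.142 and 0.107). The fibroblast-enriched score was -0.48 ± 0.02 in PS, -0.54 ± 0.07 in IFPS and -0.24 ± 0.13 in wildtype adipocytes. The MEC-enriched score was -1.93 ± 0.02, -1.89 ± 0.08 and -1.53 ± 0.27 in the same order. The part of such transcripts in the Col1a1 values was not tested. Col3a1 overlapped wildtype, with 653, 768 and 1053 CPM in PS and 916, 601 and 663 CPM in IFPS. For PS 0 of 6 genes were called (0.378% of identifiers), 2 had an unadjusted p under 0.05 (11.7%), and DESeq2 called 2, Col1a1 and Fn1 (3.48%). For IFPS 0 were called (0%), 1 was unadjusted (6.48%), and DESeq2 called Col1a1 (1.53%). Fn1 in PS adipocytes measured 2008, 1651 and 1887 CPM, and was called without wildtype replicate 1 (-1.26, adjusted p = 0.0113). Among the 3 mutated lines, Col1a1, the Col1a2 row, Col3a1 and Fn1 differed, 4 of 6 where 51.8% of identifiers did.

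Among fibroblasts PS had the highest and IFPS the lowest mean of every gene but Lox, with overlap between IFPS and PS for the Col1a2 row. Col3a1 measured 59173, 66126 and 56117 CPM in PS, 48315, 40898 and 46497 CPM in IF, 40067, 44589 and 37581 CPM in wildtype and 33002, 30892 and 36639 CPM in IFPS fibroblasts. Sparc measured 15591, 18133 and 15064 CPM in PS, 14659, 14011 and 13961 CPM in IF, 12475, 12892 and 9939 CPM in wildtype and 9957, 9126 and 11172 CPM in IFPS. PS lay above wildtype without overlap for Col1a1, Col3a1, Fn1 and Sparc, 4 of 6 genes where 39% of identifiers had groups that did not overlap. Col3a1 rose by 0.56 ± 0.12 (adjusted p = 0.0118) and Sparc by 0.46 ± 0.12 (adjusted p = 0.0255), the 2 calls of 6 where 21.7% of identifiers were called and 10.6% called higher. Neither was called when only those groups were fitted (adjusted p = 0.0607 and 0.0881, 9.31% of identifiers called). The Sparc call was also lost without wildtype replicate 3 or PS replicate 2, while DESeq2 called 4 genes higher, Col1a1, Col3a1, Fn1 and Sparc, where it called 25.3% of identifiers and 12.4% as higher.

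IF and IFPS fibroblasts did not differ from wildtype at the threshold. For IF 0 of 6 genes were called with edgeR (7.66% of identifiers) or DESeq2 (13.3%), and 1, Sparc, had an unadjusted p under 0.05 (26.3%). For IFPS 0 were called (0.0648%), 2 were unadjusted (21.4%), and DESeq2 called Fn1 (6.95%). Fn1 measured 19717, 22253 and 23359 CPM in IFPS and 30026, 26259 and 23518 CPM in wildtype fibroblasts, with no overlap (-0.30 ± 0.11, adjusted p = 0.17). These groups did not overlap for 20.7% of identifiers.

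Between IFPS and PS fibroblasts 4 genes were called, all lower in IFPS. Col1a1 measured 46171, 41727 and 49240.0 CPM in IFPS and 64379, 68469 and 60639 CPM in PS, an IFPS minus PS difference of -0.50 ± 0.12 on the log2 scale (adjusted p = 0.00606). Col3a1 (-0.85 ± 0.12, adjusted p = 0.000516), Sparc (-0.69) and Fn1 (-0.59) were lower too. These 4 of 6 had groups that did not overlap, as did 55% of identifiers, and kept their calls whichever library was left out. The comparison called 40.5% of identifiers, 20.1% lower. Lox was not called, at 2602, 1974 and 2744 CPM in IFPS and 1960.4, 1772 and 1992 CPM in PS fibroblasts (0.35 ± 0.15, adjusted p = 0.083), but was called higher when libraries were scaled by their totals (adjusted p = 0.0267). The Col1a2 row was not called either (-0.27, adjusted p = 0.227). PS fibroblast libraries were also the deepest of the fibroblasts, at 34578130.0 to 37293141 counts, and the part of depth was not tested. The fibroblast-enriched score was 3.47 ± 0.11 in IFPS, 3.71 ± 0.03 in PS, 3.84 ± 0.04 in IF and 3.80 ± 0.12 in wildtype fibroblasts. The MEC-enriched score was -0.73 ± 0.28, -1.11 ± 0.21, -1.07 ± 0.07 and -1.23 ± 0.14 in the same order. The part of such transcripts in the fibroblast values was not tested.

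Against IF fibroblasts, IFPS was lower for Col3a1 (-0.45 ± 0.12, adjusted p = 0.0192), Fn1 (adjusted p = 0.0411) and Sparc (adjusted p = 0.0111). Lox was higher, by 0.45 ± 0.15 (adjusted p = 0.0426), with 1919.8, 1783 and 1599 CPM in IF and no overlap, as for 47% of identifiers. The 4 calls stood where 31.4% of identifiers were called, 15.7% higher and 15.7% lower. With any 1 library left out 1 to 2 genes were called (17.6 to 26.2% of identifiers), and Sparc was among them each time. Col3a1 was called in 3 of those 6 fits, without IFPS replicate 3 or IF replicate 2 or 3, and Lox in 1, without IFPS replicate 2. Fn1 was called in none of the 6 (adjusted p from 0.053 to 0.164), nor with library totals (adjusted p = 0.0899) or only those groups in the fit (adjusted p = 0.0548). PS and IF fibroblasts had 0 genes called (4.78%), 1 unadjusted (21.8%) and 1 with DESeq2, Col3a1 (9.85%). Over the 3 mutated lines Col1a1, Col3a1, Fn1 and Sparc differed, 4 of 6 where 42.7% of identifiers did.

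Line effects were compared between MECs, adipocytes and fibroblasts in one fit. The IF minus wildtype difference depended on the cell type for 5 of 6 genes, all but Fn1, where 45.1% of identifiers did. With the title number that MECs, adipocytes and fibroblasts share as a block, Lox was no longer among them (adjusted p = 0.0559), which left 4 where 45.7% of identifiers were called. For Col1a1 adipocytes showed 4.81 on the log2 scale, MECs -0.59 and fibroblasts 0.12 (adjusted p = 1.02e-12 for the dependence). The PS effect depended on the cell type for Col1a1, Col3a1, Fn1 and Sparc, 4 of 6 against 8.88% of identifiers. For PS Col1a1 the differences were -0.59 in MECs, -1.0 in adipocytes and 0.31 in fibroblasts (adjusted p = 0.00811). The IFPS effect did so for Col1a1 alone of the 6 (adjusted p = 0.0334, 1.39% of identifiers), and that call was lost in 9 of the 18 fits that left out a library. Those were the fits without wildtype MEC 3, wildtype adipocyte 2, wildtype fibroblast 1, IFPS MEC 2, IFPS adipocyte 1, 2 or 3, or IFPS fibroblast 1 or 3. Leaving out 1 library gave 3 to 6 calls for IF (37.5 to 52.6% of identifiers) and 2 to 4 for PS (4.79 to 10.5%). The fewest came without wildtype MEC replicate 1, IF MEC replicate 1 or wildtype adipocyte replicate 2 for IF, and without wildtype MEC replicate 1, wildtype fibroblast replicate 3 or PS fibroblast replicate 2 for PS.

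Tumors of the PS line held far less of all 6 transcripts than PS pads. Col1a1 ranged over 76.2 to 1308 CPM with a median of 749 in 9 PS tumors and 11656 to 26087 CPM with a median of 20307 in 6 PS pads. Col3a1 ranged over 44.6 to 1168 CPM with a median of 629 in PS tumors and 13648 to 27578 CPM with a median of 22899.6 in PS pads. Lox ranged over 3.57 to 65.1 CPM with a median of 17 in PS tumors and 129 to 292 CPM with a median of 228 in PS pads. No tumor reached the lowest pad for any of the 6, where 19.8% of identifiers had groups that did not overlap. Col3a1 fell by 5.50 ± 0.85 on the log2 scale (45.3-fold, adjusted p = 2.22e-05). The smallest of the 6 changes was in Sparc (-3.09 ± 0.54, adjusted p = 9.16e-05), and Fn1 changed by -3.77 ± 0.76. All 6 were called lower, where 38.9% of identifiers were called and 20.8% called lower, and all 6 kept their calls whichever library was left out. Tumor titles carry no number shared with the pads, so the set could not be a term here. Transcripts of other cell types moved with these values. The adipocyte-enriched score was 1.55 ± 0.43 in PS tumors and 3.0 ± 0.22 in PS pads, the MEC-enriched score 2.45 ± 0.11 and 1.77 ± 0.18, and the fibroblast-enriched score 0.55 ± 0.27 and 1.68 ± 0.12. In IF the adipocyte-enriched score was 1.52 ± 0.21 in tumors and 3.12 ± 0.12 in pads, and the MEC-enriched score 2.18 ± 0.36 and 1.62 ± 0.13. In IFPS the adipocyte-enriched score was 1.95 ± 0.78 in tumors and 3.11 ± 0.15 in pads. Their part in the tumor values was not tested.

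In IF tumors 3 genes fell. Fn1 measured 495, 288, 581, 42.1 and 281 CPM in IF tumors and 4616, 8853 and 7386 CPM in IF pads (-4.36 ± 1.06, adjusted p = 0.00453). Col3a1 measured 7482, 2809, 1441, 108 and 839 CPM in IF tumors and 22970.1, 27958 and 34229 CPM in IF pads (-3.48 ± 1.06, adjusted p = 0.0187). Lox, the third, was called at an adjusted p of 0.0485 and lost the call in 7 of the 8 fits that left out a library, all but that without tumor replicate 1, and in the fit of the IF groups alone. Col1a1 measured 16342, 6752, 2446, 169 and 1138 CPM in IF tumors and was not called (-2.18 ± 1.02, adjusted p = 0.114), but was called without tumor replicate 1 (-3.16, adjusted p = 0.0381). Every IF tumor lay below every IF pad for Col1a1, 1 of 4 genes of the 6 whose groups did not overlap, as for 34.6% of identifiers. The Col3a1 call was lost without IF pad replicate 3. The 3 calls of 6 were lower, where 23.3% of identifiers were called and 13.2% called lower.

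IFPS tumors divided. Of 9 tumors, 7 had Col1a1 at 332 to 1746 CPM, and replicates 8 and 9 had 14617 and 15179 CPM, within the 11227 to 33031 CPM of IFPS pads. Col1a1 (-2.16 ± 0.75, adjusted p = 0.029) and Col3a1 (-2.17 ± 0.76, adjusted p = 0.0305) were called lower than in pads, 2 of 6 where 27.9% of identifiers were called and 12.3% called lower. Those calls were lost with only the 2 IFPS groups in the fit (14.2% of identifiers called) and with either set of pads alone, and leaving out 1 library gave 0 to 5 calls (22.5 to 37.4%). None was left without any 1 of tumor replicates 1 to 5 or pad replicate 6, and 1 without pad replicate 3. Without tumor replicate 9 alone all but Lox were called lower (32.7% of identifiers called). Without replicate 8 alone Lox was called (adjusted p = 0.00334) beside Col1a1 and Col3a1 (30.1%).

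Transcripts of several cell types moved with these tumors. The MEC-enriched score was 0.43, -0.58 and -1.26 in IFPS tumor replicates 6, 8 and 9, and 2.32 to 2.5 in the other 6. Its part in the matrix values was not tested. With those 3 tumors left out, 6 of 6 genes were called lower than in pads, Col1a1 at -4.19 (adjusted p = 3.01e-05) and Sparc at -2.77 (adjusted p = 3.79e-06). The 3 were chosen after the data were seen. Replicates 8 and 9 had Col1a1 within the range of pads, so leaving them out lowers the tumor mean by itself. The added calls are therefore no separate evidence of a fall. That fit called 49.6% of identifiers and 25% as lower. These 3 tumors also differed from each other in their mix of the 6 transcripts. Replicates 8 and 9 had like Col1a1 levels, but Lox was 601 CPM in replicate 8 and 74.7 CPM in replicate 9. Fn1 ran opposite to Lox, at 3228 and 9488 CPM. Replicate 6 had only 1267 CPM of Col1a1 with 3813 CPM of Col3a1 and 6649 CPM of Sparc.

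**Figure D4:**
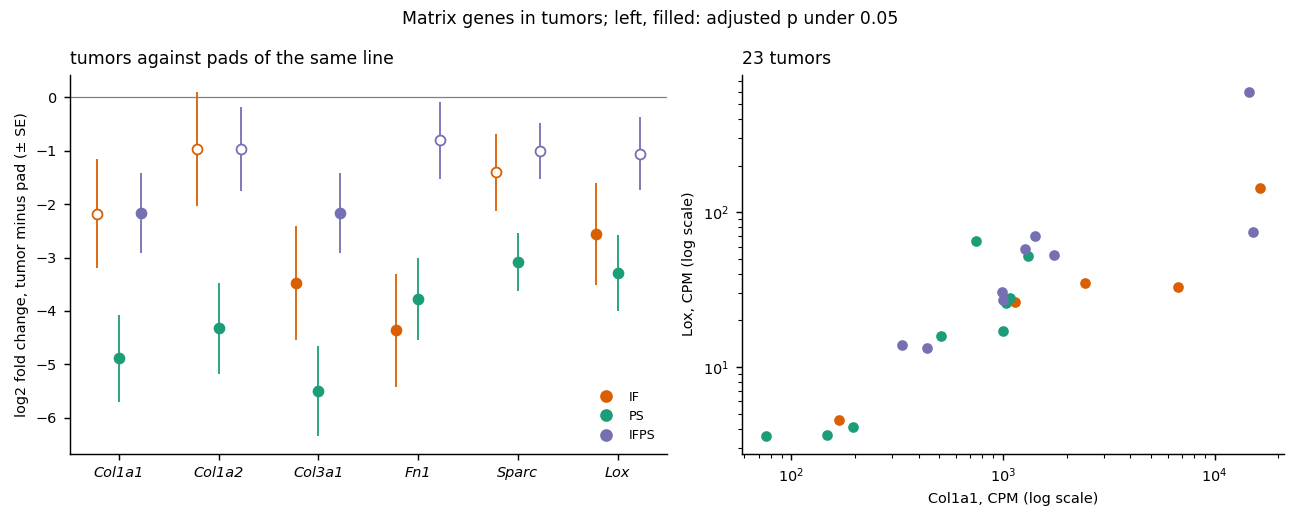
Left, log2 fold change of tumors against pads of the same line (y axis, ± SE from edgeR; filled, adjusted p under 0.05) for the 6 genes. Right, Lox against Col1a1 in each of 23 tumors (CPM, both axes logarithmic). PS tumors are lower for all 6 genes, and the IFPS tumors with the most Col1a1 differ widely in Lox.

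Between tumors of different lines no gene was called with edgeR. IFPS minus PS values ran from 1.99 for Sparc to 3.15 for Col3a1 on the log2 scale, with adjusted p-values of 0.0621 to 0.122. Groups overlapped for each gene, with Col1a1 at a median of 1267 CPM in IFPS and 749 CPM in PS tumors. In that comparison 0% of identifiers were called, all 6 genes had an unadjusted p under 0.05 (22.2%), and DESeq2 called 5, all but Fn1, which it did not test (7.17%). Without the 3 IFPS tumors of low MEC score the IFPS minus PS value of Col1a1 was 0.53 (adjusted p = 0.853), and 0 genes were called (0% of identifiers). Leaving out 1 library gave 0 to 2 calls (0 to 4.76% of identifiers), with any call made only without IFPS tumor replicate 1, 2, 4 or 7. IF against PS tumors gave 0 calls (2.48%), 4 unadjusted (16.9%) and 3 with DESeq2, Col1a1, the Col1a2 row and Sparc (6.41%). The same 3 were called when only the IF and PS tumors were fitted (7.86%). IFPS against IF tumors gave 0 calls with edgeR (4.25%) and with DESeq2 (12.1%), and 1 unadjusted, Fn1 (23%). Without the 3 IFPS tumors of low MEC score 2 genes were called lower in IFPS, the Col1a2 row (adjusted p = 0.0422) and Sparc (-1.83, adjusted p = 0.0225), and the Fn1 value went from 2.32 to -0.09. That fit called 9.34% of identifiers and 5.95% as lower. It kept every IF tumor, although replicate 1 had 16342 CPM of Col1a1 and replicate 2 a MEC-enriched score of 1.59. DESeq2 did not test Fn1 in these tumor fits.

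The balance between the genes was read from count ratios to Col1a1 within each library, which do not depend on scaling between libraries. They carry no length correction and are compared only across samples. Pads kept a narrow balance of Col3a1 to Col1a1, with mean log2 ratios (± SD) of 0.13 ± 0.11 in wildtype and 0.15 ± 0.10 in IFPS pads, then 0.19 ± 0.07 for PS and 0.21 ± 0.11 for IF. MECs stood higher, from 1.13 ± 0.24 in wildtype to 1.41 ± 0.28 in IF, and fibroblasts lower, from -0.45 ± 0.03 in IFPS to -0.09 ± 0.04 in PS. Adipocytes gave 1.27 ± 0.44 in wildtype, 2.21 ± 0.39 in PS and 2.43 ± 0.26 in IFPS, but -0.04 ± 0.22 in IF. No IF adipocyte library overlapped those of the other lines in this ratio. Col1a1 itself was 28-fold above wildtype in IF adipocytes, which lowers any ratio to it. The share of identifiers whose ratio was apart in adipocytes was not computed.

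**Figure D5:**
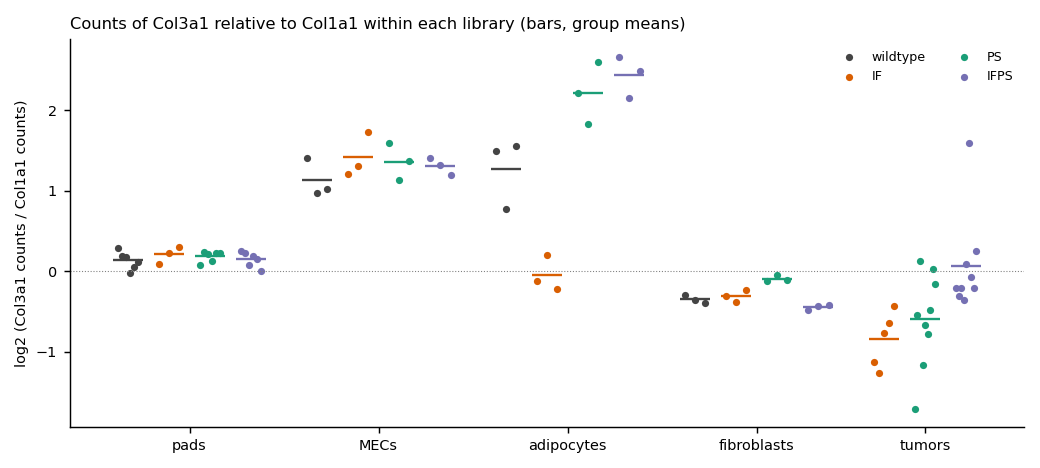
Log2 ratio of Col3a1 to Col1a1 counts (y axis) in each library by tissue and line (x axis), with bars at group means. Pads lie in a narrow band near 0, IF adipocytes near 0 while the other adipocytes are above, and all 5 IF tumors below 0.

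In tumors the ratio of Col3a1 to Col1a1 was -0.85 ± 0.34 for IF (SD, n = 5) and -0.60 ± 0.58 for PS (n = 9). The tumor minus pad differences were -1.06 for IF (two-sided exact permutation test, adjusted p = 0.0244) and -0.78 for PS (exact permutation test, adjusted p = 0.0145). In IFPS tumors the difference was -0.09 (exact permutation test, adjusted p = 0.858), and without the 3 IFPS tumors of low MEC score -0.33 (n = 6 tumors, exact permutation test, adjusted p = 0.0139).

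In PS and IFPS tumors the other ratios to Col1a1 rose, as did those of most identifiers. In PS tumors the ratio of Sparc was higher than in pads by 2.23 (exact permutation test, adjusted p = 0.00599) and that of Lox by 1.44 (exact permutation test, adjusted p = 0.00599), each in 9 of 9 tumors. In IFPS tumors the ratios of Fn1, Sparc and Lox were higher by 1.05, 1.60 and 1.29 (largest of the 3 adjusted p from exact permutation tests, 0.0193). In IF tumors these did not pass, with Fn1 at -1.28 and 0 of 5 tumors above the pad mean, Sparc at 1.43 and Lox at 0.17 (adjusted p from exact permutation tests of 0.268, 0.179 and 0.858). Over all 17226 identifiers the median tumor minus pad difference in the log2 ratio to Col1a1 was 5.33 for PS, 3.28 for IFPS and 3.46 for IF, above each member's difference. At an unadjusted exact permutation p under 0.05, 4 of the 5 PS ratios were higher and 1, Col3a1, lower, where 98% of identifiers were higher and 0.203% lower. For IFPS 4 of 5 were higher (84.1%), and for IF 1 of 5 was higher, the Col1a2 row (19.1%), and 1 lower, Col3a1 (0.163%).

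Of 15 such tests, 5 ratios in each of 3 lines, 11 had an adjusted p under 0.05, with p-values adjusted over the 15. With pads 1 to 12 only, 0 of 15 passed. The PS differences of Col3a1 and Sparc were then -0.78 and 2.24 over 9 tumors and 3 pads (unadjusted exact permutation p = 0.0455 and 0.00909). Without any 1 IF pad the Col3a1 and Col1a2 row calls in IF were lost (adjusted p up to 0.0714 and 0.119). With a pad left out the exact test has too few splits for an IF ratio to pass, given the other p-values adjusted with it. That loss was therefore fixed in advance and does not bear on these calls. With 5 IF tumors and 3 IF pads the smallest p possible was 0.0179 before adjustment.

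Over all 23 tumors the 6 genes went up and down together. Correlations of other identifiers over the tumors were not computed. Over 15 pairs and 23 tumors Pearson's r of log2 CPM was 0.691 to 0.956 (median 0.855) and Spearman's rho 0.792 to 0.944, with permutation p-values adjusted over the pairs of 1.25e-05 to 0.00019 for r. Of the 15 pairs, 12 had an unadjusted p of 1e-05, the smallest that 100000 permutations give. Col1a1 and Col3a1 were the closest pair (r = 0.956, rho = 0.944), and Sparc and Lox had the lowest r (r = 0.691, rho = 0.855). Without the 2 tumors farthest from the median r was 0.486 to 0.944, and without the 3 IFPS tumors of low MEC score 0.434 to 0.964. Within PS tumors r was 0.567 to 0.960 and within IFPS tumors 0.682 to 0.963. Of the 15 pairs, 14 passed the permutation test without those 3 tumors, 12 within PS tumors and 15 within IFPS tumors. The fibroblast-enriched score was 0.55 ± 0.27 in PS, 0.84 ± 0.25 in IF and 1.0 ± 0.38 in IFPS tumors, against 1.64 to 1.81 in the pads of those lines. Its part in these values was not tested.

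Over the 19 group means of log2 CPM, which share tissues and lines and carry no test, the 6 genes fell into patterns. Col1a1 and Col3a1 were alike (r = 0.947), and Fn1 and Lox were alike (r = 0.967), while Col1a1 and Sparc were least so (r = 0.475). The identifiers with the highest mean r to the 6 genes were ENSRNOG00000015505 (mean r = 0.865) and ENSRNOG00000008749 (mean r = 0.852), of 9681 rows with a mean log2 CPM above 3. ENSRNOG00000015505 averaged 729 CPM in wildtype fibroblasts, 18 CPM in wildtype adipocytes, 72.5 CPM in IF adipocytes and 5.0 CPM in PS tumors. The files do not pair these identifiers with symbols.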

How the data were processed

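RNA was sequenced from 80 rat libraries in 19 groups of tissue and line. The authors deposited raw gene counts. Per the submitters' processing notes, reads were trimmed with Trim Galore and aligned with STAR 2.5.2b to Rnor_6.0, and the counting tool, annotation and strand setting are not given in the sources used here. Libraries were grouped by their labels. Counts were scaled by TMM over all 80 libraries for the CPM printed (prior count 2 for log2 values). Each comparison was tested with edgeR 4.0.16 quasi-likelihood fits in R 4.3.3, one per tissue or pair of tissues, on rows passing edgeR's expression filter, with Benjamini-Hochberg adjustment over all rows tested. Pads carried their title-number set as a term. Enriched identifiers were those at least 4-fold above both other wildtype cell types with an adjusted p under 0.05.

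The genes and lists were chosen with earlier results of these data known. All 6 genes are named in every comparison, with the 2 rows most alike to them over group means. Lists of other matrix genes and of cell markers were not used here, since the files pair no identifier with a symbol and 0 of 47357 reference genes carry such identifiers. The labels do not say that libraries are separate animals, so p-values measure the spread between these samples. Alternatives were DESeq2 1.42.0, other scalings, no filter, fits of 2 groups, single sets of pads, the replicate block and each library left out. Fits were tested on simulated counts, where 33.0 to 76.0% of 2-fold changes were called over 7 comparisons. MEC and fibroblast libraries with the same title number deviated together (r = 0.147 to 0.330 over 12 pairs), while pairs with adipocytes did not all do so.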

Additional observations from a re-analysis of the deposited data

Results flagged for a closer look

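In 2 of 36 sets of 4 to 10 libraries (6 genes in 6 groups) 1 library stood far from the rest by Dixon's 95% limits, where chance gives about 1 in 20. Fn1 in IF tumor replicate 4 was 42.1 CPM, with a gap of 0.722 of the group's range (limit 0.71). Lox in IFPS tumor replicate 8 was 601 CPM, with a gap of 0.548 (limit 0.493).

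Line effects that differed between MECs, adipocytes and fibroblasts by edgeR's test of the difference were these, as adjusted p-values. For IF they were Col1a1 1.02e-12, the Col1a2 row 1.79e-06, Col3a1 7.42e-12, Sparc 0.032 and Lox 0.0314. For PS they were Col1a1 0.00811, Col3a1 0.0219, Fn1 0.0161 and Sparc 0.0306. For IFPS it was Col1a1, 0.0334. The largest single effect among them was Col1a1 in IF adipocytes, a log2 fold change of 4.81 with 3 of 3 libraries above wildtype. Cell type and sample handling cannot be told apart in these tests.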

How the results depend on the processing

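No alternative with DESeq2's size factors in edgeR or without a term for the set of pads changed a call of a single gene. Scaling by library totals, added after the data were seen, moved the median log2 fold change of all identifiers by up to -0.40 (wildtype adipocytes minus MECs), gave -0.10 for Lox in wildtype fibroblasts minus MECs, and among single genes lost 2 calls and gained 1.

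The number of the 6 genes called moved by over 1.5 times, or to or from 0, as follows, and the cause was not tested. DESeq2 called 2 for IF MECs, 2 for PS MECs, 1 among mutated MECs, 2 for PS adipocytes, 1 for IFPS adipocytes, 4 for PS fibroblasts, 1 for IFPS fibroblasts, 1 for PS against IF fibroblasts, 5 for IFPS against PS tumors and 3 for IF against PS tumors. Without a filter on low counts 2 were called for IF MECs and 1 for PS MECs. With only the compared groups fitted the numbers were 0 for IF MECs, 0 for PS fibroblasts, 0 for IFPS tumors against pads and 3 for IF against PS tumors. Pads 1 to 12 alone, and pads 13 to 21 alone, left 0 for IFPS tumors. Without the 3 IFPS tumors of low MEC score, chosen after the data were seen, 6 were called against pads and 2 for IFPS against IF tumors, where the values of Fn1 and Lox turned to -0.086 and -0.53. With pads 1 to 12 only, 0 of 15 ratio tests passed, and PS minus wildtype pad values turned to 0.26 (Col1a1), 0.41 (Col1a2 row), 0.22 (Col3a1), 0.41 (Fn1), 0.18 (Sparc) and 0.30 (Lox). Smaller moves were 5 in place of 4 with DESeq2 for IFPS against IF fibroblasts and among mutated fibroblasts, 3 in place of 4 for IFPS against IF fibroblasts with library totals or only those groups, 5 in place of 4 for IFPS against PS fibroblasts with library totals, and 2 in place of 3 for IF tumors against pads without a filter, with library totals, with only those groups or with pads 1 to 12. Ratio tests gave 10 and 12 in place of 11 with a prior count of 0.5 and without the 3 IFPS tumors.

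Leaving out 1 library gave 0 to 1 calls for IF MECs, 3 to 4 for IF adipocytes, 0 to 1 for PS adipocytes, 3 to 5 among mutated adipocytes, 1 to 3 for PS fibroblasts, 3 to 4 among mutated fibroblasts, 4 to 5 for IFPS against PS fibroblasts and 1 to 2 for IFPS against IF fibroblasts. For tumors it gave 1 to 4 (IF against pads), 6 to 6 (PS), 0 to 5 (IFPS) and 0 to 2 (IFPS against PS tumors), for line effects across cell types 3 to 6 (IF), 2 to 4 (PS) and 0 to 1 (IFPS), and for ratio tests 9 to 12. The Lox value ran from -0.021 to 0.72 for IF adipocytes and from -0.21 to 2.04 for IFPS minus IF tumors, with the lowest without IF adipocyte replicate 2 and IFPS tumor replicate 8. The replicate block (title number shared by MECs, adipocytes and fibroblasts) gave 5, 6 and 6 calls between wildtype cell types and 4, 4 and 1 for the IF, PS and IFPS effects, of which the loss of Lox for IF was the 1 changed call. Of 144 log2 values, 30 lay within 1 SE of 0 and were not followed across settings. Low counts limit the Col1a2 row, at 0 to 6 counts per adipocyte library outside IF.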
